A study of Mus musculus with 6 samples.

Results

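The S100 calcium-binding proteins were examined in 2 sorted fractions of mouse bone marrow, through 10 genes of the family: S100a1, S100b, S100a4, S100a6, S100a8, S100a9, S100a10, S100a11, S100a13 and S100a16. A probe set, the group of array probes designed for a transcript, was taken where the platform annotation gave it exactly 1 gene symbol and that symbol was on this list. This gave 14 probe sets for 9 genes out of 45101 probe sets on the array. The only probe set annotated to S100a11 carries several symbols, so S100a11 was not analysed here. The animals were 3 Grem1;TdTomato mice on a C57BL/6J background, labelled male, 6 to 8 weeks old and given tamoxifen by mouth, and every group below shares this genotype and treatment. The Grem1+ fraction is named for Grem1, the gene of the secreted BMP antagonist Gremlin 1, and the labels state no gate for it beyond that name. The Grem1- fraction held non-recombined cells gated against CD45, a blood cell antigen, CD31, an endothelial one, and Ter-119, a red cell one. Both fractions came from the same mice, so each mouse gave 1 array of each kind and the groups hold 3 arrays each. The labels do not name the recombinase construct and do not give the purity of the sorts.

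S100 proteins are small EF-hand proteins that change shape when they bind calcium and then dock onto target proteins. S100B and S100A1 are made by chondrocytes, where the SOX factors of cartilage drive their genes, and S100B is also a marker of Schwann cells while S100A1 is best known from heart and skeletal muscle. S100A8 and S100A9 form calprotectin, a main cytosolic protein of neutrophils and monocytes that is released as an alarm signal. S100A4, S100A6, S100A10, S100A11, S100A13 and S100A16 are found in many cell types, and S100A10 is unusual in having lost calcium binding and in pairing with annexin A2.

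The arrays were alike in overall scale, with medians from 3.74 to 3.81 on the log2 scale. Ptprc, the gene of CD45, stood at 12.13, 11.78 and 12.37 on the Grem1- arrays of mice 1, 2 and 3, although that fraction was gated as CD45-negative, and at 7.29, 9.61 and 10.56 on the Grem1+ arrays. Grem1 itself read 3.69, 3.75 and 3.70 in Grem1- and 4.49, 4.14 and 8.61 in Grem1+, so that mouse 3 was far above the others. In mice 1 and 2 the Grem1 difference between fractions was only 0.81 and 0.39. Xist, an RNA made where an X chromosome is silenced, read 11.04 (Grem1-) and 10.60 (Grem1+) in mouse 3 but no more than 2.99 in mice 1 and 2, although mouse 3 is labelled male. Differences of the S100 genes are therefore also given without mouse 3, and calls of the partner genes that changed without it are named. The Gapdh control probe sets, whose 3' to 5' gap widens when RNA is shorter, gave log2 gaps of 2.66 ± 0.34 for Grem1- and 3.58 ± 0.51 for Grem1+ (SD, n = 3). Its part in the results was not tested.

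The family split by direction. Of the 9 genes measured, S100a1, S100b, S100a13 and S100a16 were higher in Grem1+ and S100a4 was lower in limma, adjusted for all genes tested, while S100a6, S100a8, S100a9 and S100a10 did not pass at the probe set used for the gene. Differences are Grem1+ minus Grem1- on the log2 scale, and a gene passed when its adjusted p was under 0.05. Of all 10151 genes tested, 11.7% were higher and 8.51% were lower by this rule. The median difference over the 9 genes was 0.66, beside 0.04 over all genes. No gene of the 9 had overlapping groups, with 5 above and 4 below, beside 23.2% and 19.8% of all genes. Over probe sets, 7 of the 13 that passed the filter on dim values were higher and 0 were lower in limma, where 10.1% of all 18157 probe sets were higher and 7.76% lower. At an unadjusted limma p under 0.05, 3 of the 13 were lower. That level was also reached by 3666 of all 10151 genes, counting both directions. Without mouse 3 the model with the mouse as a block called 0 of all genes in either direction, so no S100 gene passed. Also without mouse 3, the model without that block called 3 S100 genes higher (S100a1, S100a16 and S100b) and 0 lower. It called 769 of all 10151 genes higher and 525 lower. The differences without mouse 3 of the genes with smaller shifts were 1.34 for S100a13, 0.64 for S100a10, -1.37 for S100a4, -1.05 for S100a6 and -1.39 for S100a9. In sorted bulk samples, fewer cells of a type and less RNA per cell cannot be told apart.

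**Figure D1:**
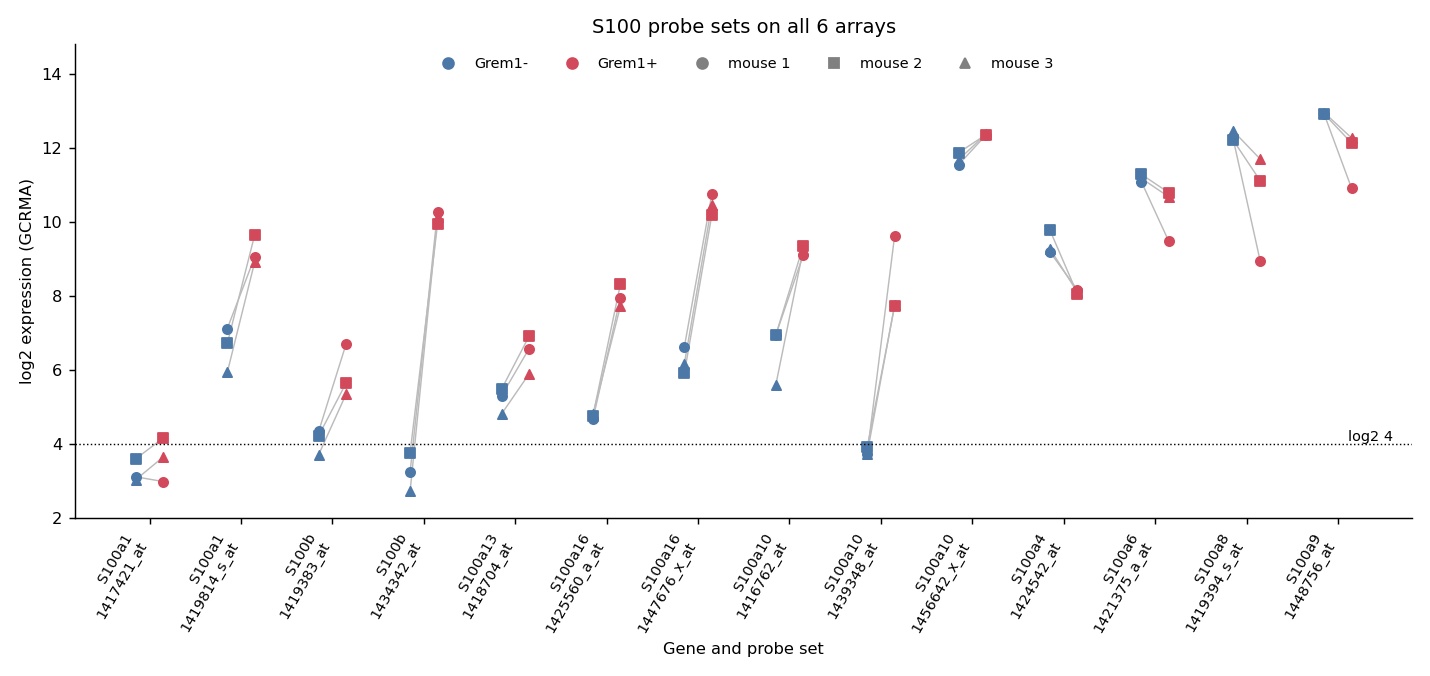
Log2 expression (vertical axis) of all 14 S100 probe sets (horizontal axis) on the 3 Grem1- arrays (blue) and the 3 Grem1+ arrays (red), with lines joining the fractions of 1 mouse and a dotted line at log2 4, below which values were treated as dim. Probe set 1434342_at of S100b goes from at most 3.78 to at least 9.95, and levels of different probe sets are not comparable.

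S100b showed the largest difference of the family. Its probe set 1434342_at read 3.26, 3.78 and 2.74 in the Grem1- fractions of mice 1, 2 and 3, and 10.28, 9.95 and 10.13 in their Grem1+ fractions. All 3 Grem1- values were dim and all 3 Grem1+ values were far above them, with a difference of 6.86 (SE 0.36, limma adjusted p = 0.00906). Because the lower group was dim, this is given as at least 69.6-fold, counting each dim value as log2 4. The second probe set, 1419383_at, read 4.35, 4.23 and 3.72 against 6.71, 5.65 and 5.36. It moved the same way in each mouse by a much smaller 1.80 (SE 0.34, limma adjusted p = 0.0353 over probe sets), so the size of the S100b difference depends on the probe set, and the mean of both gave 4.33. Without mouse 3 the difference on 1434342_at was 6.60.

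S100a1, the other member made by chondrocytes, was higher as well. Probe set 1419814_s_at stood at 7.12, 6.72 and 5.94 in Grem1- and at 9.06, 9.65 and 8.92 in Grem1+. Each Grem1+ value exceeded each Grem1- value, and the difference was 2.62 (SE 0.34, limma adjusted p = 0.0189), a 6.13-fold change. The suffix _s_at marks a probe set whose probes may match several transcripts, and the gene-specific probe set 1417421_at was dim on all Grem1- arrays at 3.12, 3.61 and 3.05 and read 2.99, 4.17 and 3.66 in Grem1+. That probe set did not pass the filter, its groups overlapped and it was not tested, so the S100a1 result rests on 1419814_s_at. Without mouse 3 the S100a1 difference was 2.43.

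Markers of the cell types known for these genes moved unevenly, where 11.7% of all genes were higher and 8.51% lower. Of 18 tested chondrocyte markers, 16 were higher and 0 lower, with a median difference of 4.07, and their summed level (log2 of the summed linear values) ran from 12.66 to 13.23 in Grem1- and from 15.40 to 15.59 in Grem1+. The cartilage regulators Sox9 and Sox5, transcription factors that act on S100 genes in chondrocytes, differed by 4.58 (SE 0.39) and 2.69 (SE 0.32), with limma adjusted p-values of 0.0109 and 0.0165, and Sox6, their partner, differed by 2.03 (SE 0.48) and missed the threshold (adjusted p = 0.0580). Of the 4 passing probe sets of Sox6, 3 were called higher over probe sets, with all 4 between 2.03 and 4.56. The 3 passing probe sets of Sox9 ranged from 0.95 to 6.901. Of 4 tested Schwann cell markers, 1 was higher, namely Pmp22, a myelin protein gene that other cells also use, and 0 were lower. The summed level of this list was 9.44 to 11.001 in Grem1- and 11.88 to 12.34 in Grem1+, while Cdh19 and Gfap were dim on all 6 arrays and Sox10, the defining factor of the lineage, did not exceed 4.22 on any array. Egr2, a transcription factor gene of myelinating Schwann cells, was the brightest of the list on all 6 arrays. It therefore weighed most in the summed level. Egr2 went from 9.71 ± 0.99 in Grem1- to 11.83 ± 0.24 in Grem1+ (SD, n = 3) with no overlap. Its difference of 2.12 (SE 0.47) missed the threshold (limma adjusted p = 0.0505). Mbp, a myelin gene, differed by -0.96 (SE 0.50) and also missed it (limma adjusted p = 0.253). Of 5 tested striated muscle markers 1 was higher and 0 lower, and the summed level ran from 8.04 to 10.6 in Grem1- and from 9.43 to 11.4 in Grem1+. Tnni2, a troponin gene of fast muscle, was the one higher (3.46, SE 0.61, limma adjusted p = 0.0316). Tnnt3 differed by 2.60 (SE 0.69) and Myh1 by -3.36 (SE 1.31) without passing (limma adjusted p = 0.0726 and 0.158). Myh1 read 8.85, 6.28 and 10.10 in Grem1- and 2.72, 2.21 and 10.23 in Grem1+, so mouse 3 was level. Tnnc2 and Mb differed by -0.52 (SE 0.70) and 0.06 (SE 0.26), also without passing. Actn2, Ckm and Ttn were dim on all 6 arrays. Myh2 and Myh4 were dim on all Grem1+ arrays and on 1 Grem1- array each. The part of these cell types in the S100b and S100a1 values was not tested.

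S100a13, which helps release signal-less proteins such as FGF1, was higher by a smaller amount. Its single probe set, 1418704_at, stood at 5.31, 5.49 and 4.82 in Grem1- and at 6.58, 6.91 and 5.89 in Grem1+. The groups did not overlap, and the differences of 1.27, 1.42 and 1.08 in mice 1, 2 and 3 were close to each other. The mean difference of 1.26 (SE 0.26) passed among genes (limma adjusted p = 0.0432) and not among probe sets (adjusted p = 0.0522). It also missed the threshold without the replicate block (adjusted p = 0.0502).

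S100a13 and S100a1 lie head to head on the mouse genome. In RefSeq (GRCm38.p6) their start sites face away from each other with 104 bases between them. Both were called higher among genes, and a shared control was not tested. This stretch is shown because, of the members with a promoter window (described below), only these had windows that overlap. It is followed by the 250 bases before the start site of S100b, the member with the largest difference, of S100a4, the lower member, and of the calprotectin genes S100a8 and S100a9. Each is written 5' to 3' on the strand given. Capitals mark matches, on either strand, to the SOX core AACAAT, to the C/EBP motif TTGCNNAA or to the TATA box motif TATAAA, and no marked matches overlap.
S100a1 and S100a13 (chr3:90514331-90514434, plus strand): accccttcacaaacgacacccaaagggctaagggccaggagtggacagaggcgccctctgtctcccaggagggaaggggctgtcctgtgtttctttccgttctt
S100b (chr10:76253586-76253835, plus strand): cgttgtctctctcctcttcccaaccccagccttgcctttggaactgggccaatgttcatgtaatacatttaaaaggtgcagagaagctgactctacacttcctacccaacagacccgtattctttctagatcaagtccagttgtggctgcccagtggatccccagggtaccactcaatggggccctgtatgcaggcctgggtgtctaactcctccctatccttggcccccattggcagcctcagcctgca
S100a4 (chr3:90603520-90603769, plus strand): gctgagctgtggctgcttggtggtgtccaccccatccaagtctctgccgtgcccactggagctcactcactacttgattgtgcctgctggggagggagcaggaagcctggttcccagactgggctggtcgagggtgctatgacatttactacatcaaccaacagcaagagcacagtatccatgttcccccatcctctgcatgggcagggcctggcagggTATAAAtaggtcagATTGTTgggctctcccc
S100a8 (chr3:90668821-90669070, plus strand): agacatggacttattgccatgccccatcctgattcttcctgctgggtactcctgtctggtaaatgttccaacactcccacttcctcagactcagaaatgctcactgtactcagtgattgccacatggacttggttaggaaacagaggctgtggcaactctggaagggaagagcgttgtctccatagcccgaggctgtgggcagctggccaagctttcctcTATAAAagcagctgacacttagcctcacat
S100a9 (chr3:90695722-90695971, minus strand): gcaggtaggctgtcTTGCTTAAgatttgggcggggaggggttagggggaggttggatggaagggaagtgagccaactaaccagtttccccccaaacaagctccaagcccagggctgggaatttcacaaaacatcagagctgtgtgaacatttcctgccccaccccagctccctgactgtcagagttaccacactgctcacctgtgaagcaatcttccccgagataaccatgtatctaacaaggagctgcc

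In the RefSeq table, 9 of the 10 members had a promoter window of 300 bases, from 250 before to 50 after a start site, and S100a16 had several, for 10 windows in all. AACAAT occurred in the windows of S100a4, starting at position -17, and of 1 S100a16 start site, at -96, and in 10.7% of all 32851 windows. It did not occur in those of S100b or S100a1. TTGCNNAA occurred in the S100a9 window at -236 and in 10.8% of all windows. TATAAA occurred in the windows of S100a8 at -30, of S100a4 at -31 and of S100a9 at 1, past the stretch shown, and in 13.6% of all windows. These matches describe letters in a window and are not evidence of binding.

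S100a16 was higher on both of its probe sets. On 1447676_x_at it read 6.63, 5.92 and 6.18 in Grem1- and 10.74, 10.18 and 10.45 in Grem1+. The groups lay far apart, with differences of 4.11, 4.26 and 4.27 in mice 1, 2 and 3, a mean of 4.21 (SE 0.25, limma adjusted p = 0.00906) and an 18.6-fold change. Probe set 1425560_a_at read 4.68, 4.77 and 4.81 against 7.95, 8.31 and 7.72, a difference of 3.24 (SE 0.30, limma adjusted p = 0.0115 over probe sets). Of the 4 genes called higher, S100a16 and S100b had the smallest adjusted p. Without mouse 3 the S100a16 difference was 4.19. Both probe sets end in _x_at or _a_at, so S100a16 was not tested in the setting that removed probe sets with such suffixes.

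S100a10, the annexin A2 partner also called p11, was above Grem1- on all 3 of its probe sets but by very different amounts. Probe set 1456642_x_at, used for the gene because its mean was highest, read 11.54, 11.87 and 11.68 in Grem1- and 12.35, 12.35 and 12.37 in Grem1+. Here the groups were separate, yet a difference of 0.66 (SE 0.26) missed the threshold (limma adjusted p = 0.157). Probe set 1416762_at read 6.95, 6.95 and 5.60 against 9.10, 9.35 and 9.25, a difference of 2.74 (SE 0.42, limma adjusted p = 0.0242 over probe sets). Probe set 1439348_at was dim in Grem1- at 3.73, 3.92 and 3.75 and read 9.62, 7.73 and 7.76 in Grem1+, which is at least 20.6-fold higher (limma adjusted p = 0.0156 over probe sets). With the mean of its probe sets S100a10 differed by 2.66 and passed (adjusted p = 0.0070), so the call for the gene turns on which probe set stands for it.

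**Figure D2:**
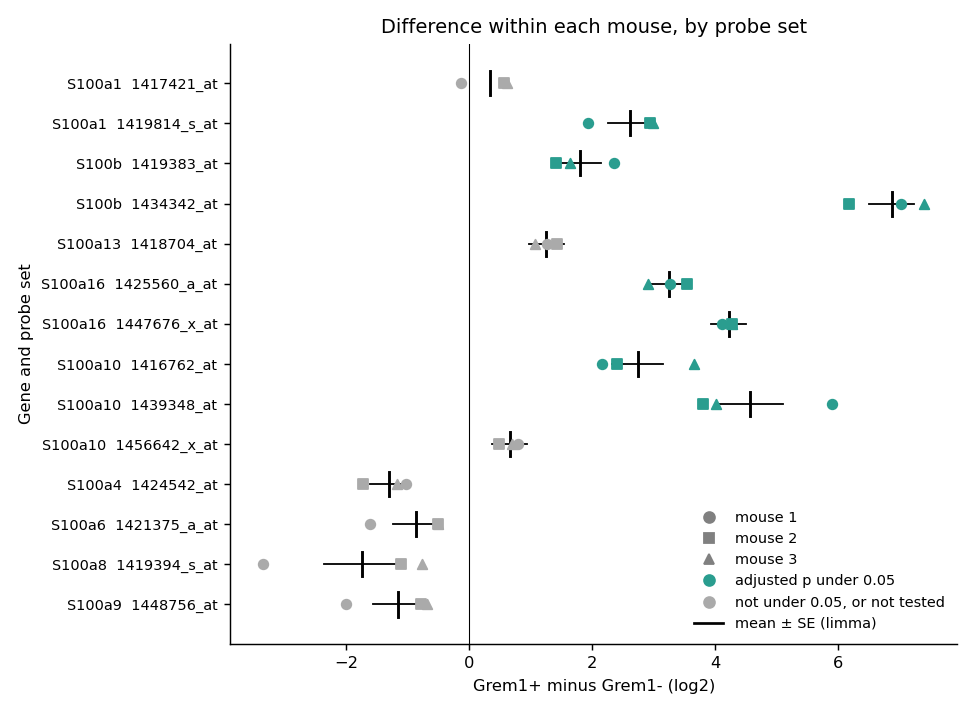
Grem1+ minus Grem1- difference (log2, horizontal axis) of each S100 probe set in mice 1, 2 and 3 (symbols), with the mean (vertical tick) and the limma standard error (horizontal bar). Green marks the 7 probe sets with an adjusted p under 0.05 over all probe sets, and the 3 probe sets of S100a10 spread from 0.66 to 4.57.

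S100a4, also known as fibroblast-specific protein but expressed by leukocytes too, was the member called lower. Its probe set 1424542_at stood at 9.19, 9.77 and 9.27 in Grem1- and at 8.16, 8.06 and 8.10 in Grem1+. The Grem1+ arrays were close to each other and all below the Grem1- arrays, with a difference of -1.30 (SE 0.29), a 2.47-fold change. The limma adjusted p of 0.0499987 is just under the threshold among genes, and it was 0.0582 among probe sets. Over the other settings that kept all 3 mice the adjusted p ran from 0.0165 to 0.0649.

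S100a6, calcyclin, had lower values in Grem1+ without passing. Probe set 1421375_a_at read 11.08, 11.28 and 11.17 in Grem1- and 9.47, 10.79 and 10.67 in Grem1+. Mouse 1 was the lowest of the Grem1+ arrays, and the difference was -0.87 (SE 0.36, limma adjusted p = 0.175), or -0.50 without mouse 1.

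S100a8 and S100a9 had lower values in Grem1+ in every mouse, but neither passed. S100a8 (1419394_s_at) read 12.28, 12.22 and 12.46 in Grem1- and 8.94, 11.11 and 11.69 in Grem1+. The Grem1- arrays were close together, while the Grem1+ array of mouse 1 lay well below those of mice 2 and 3. A difference of -1.74 (SE 0.62) missed the threshold (limma adjusted p = 0.131). Leaving out mouse 1 gave -0.94 and leaving out mouse 3 gave -2.23. S100a9 (1448756_at) read 12.90, 12.91 and 12.95 against 10.90, 12.12 and 12.26, with mouse 1 again lowest and no overlap between groups. Its difference of -1.16 (SE 0.39) missed the threshold as well (limma adjusted p = 0.116). Without mouse 1 it was -0.74.

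Medians of the blood cell marker lists over all mice were further from 0 than the S100a8 and S100a9 differences. Single bright markers varied. The brightest in Grem1-, Chil3, Laptm5, Lyz2 and Lcp1, with means of at least 12.17 there, differed by -1.89, -1.51, -1.56 and -1.54. Ptprc and Spn, next in brightness, differed by -2.94 and -4.41. At this probe set Ptprc missed the threshold (limma adjusted p = 0.0609). Its other passing probe set differed by -5.67, and 1 of the 2 was called lower over probe sets. Of all genes tested, 11.7% were higher and 8.51% lower. Of 16 tested granulocyte markers 14 were lower and 0 higher, with a median difference of -3.27, and by mouse the list median differed by -4.22, -3.84 and -2.46. The summed granulocyte level was 14.46 to 14.53 on the Grem1- arrays and 10.56 to 13.05 on the Grem1+ arrays, and no marker of the list was dim on all Grem1+ arrays. Of 6 tested monocyte and macrophage markers 3 were lower and 0 higher, with summed levels of 12.6 to 12.8 and 9.99 to 11.5. C1qa, C1qc and Cx3cr1 of this list were dim on all 6 arrays, and Adgre1 on all Grem1+ arrays and 2 Grem1- arrays. C1qb, a complement gene of macrophages, read 7.10, 4.78 and 4.55 in Grem1- and 3.39, 6.98 and 8.83 in Grem1+, lower in mouse 1 and above Grem1- in mice 2 and 3. Of 12 pan-haematopoietic markers 9 were lower and 0 higher, with a median difference of -3.12. S100a8, S100a9, S100a6 and the granulocyte and monocyte list medians differed most in mouse 1. S100a4 and the pan-haematopoietic list median differed most in mouse 2. Single granulocyte markers did not share 1 order, as Chil3 and Lcn2 differed most in mouse 1 and Mpo and Elane in mouse 2. The part of blood cells in the S100 values of either fraction was not tested.

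**Figure D3:**
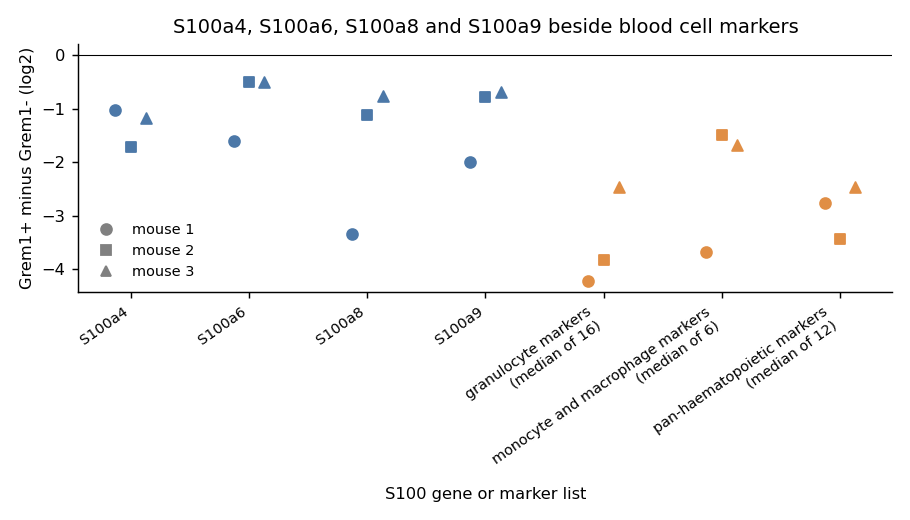
Grem1+ minus Grem1- difference (log2, vertical axis) in mice 1, 2 and 3 for S100a4, S100a6, S100a8 and S100a9 (blue) and for the median of 3 blood cell marker lists (orange). S100a8 runs from -3.34 in mouse 1 to -0.77 in mouse 3, and the granulocyte median from -4.22 to -2.46.

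Set against each other, the median of the other members lay above the mean of the myeloid pair in every mouse. The median difference of the 7 other measured members was 1.27, 1.42 and 1.08 in mice 1, 2 and 3, and the mean of S100a8 and S100a9 was -2.67, -0.95 and -0.73. The gap was 3.94, 2.37 and 1.80, with a mean of 2.70 ± 1.11 (SD, n = 3). It was larger at 4.06 when the most variable probe set stood for each gene. At the probe set used for each gene, that median was the S100a13 difference in each mouse, and the other members ran from -1.30 to 6.86. The split was made with these values known and has no test, and S100a4 and S100a6 lay on the side of the myeloid pair. S100a4, at -1.71 and -1.17 in mice 2 and 3, was below the mean of the pair there.

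The direction also followed the order of the genes on the chromosome. Apart from S100b, the members lie on mouse chromosome 3, most of them in 1 cluster. Reading along that cluster, S100a1, S100a13, S100a16 and S100a3 come first, and S100a4, S100a6, S100a8 and S100a9 follow. The 4 genes of the first stretch were higher, where S100a3, a family gene outside the list of members, was dim in Grem1- at 2.22, 2.21 and 2.33 and read 5.32, 4.51 and 4.89 in Grem1+ (at least 1.87-fold, limma adjusted p = 0.0156). S100a3 missed the threshold when dim values were raised to log2 4 (adjusted p = 0.108). The 4 of the second stretch had differences from -1.74 to -0.87, of which S100a4 passed. S100a10 and S100a11 lie beyond a further 54 protein-coding genes, and S100a10 differed by 0.66. S100a14 and S100a5, which lie within these stretches, were dim on all arrays and were not tested. The order was examined after the differences were known and was not tested.

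**Figure D4:**
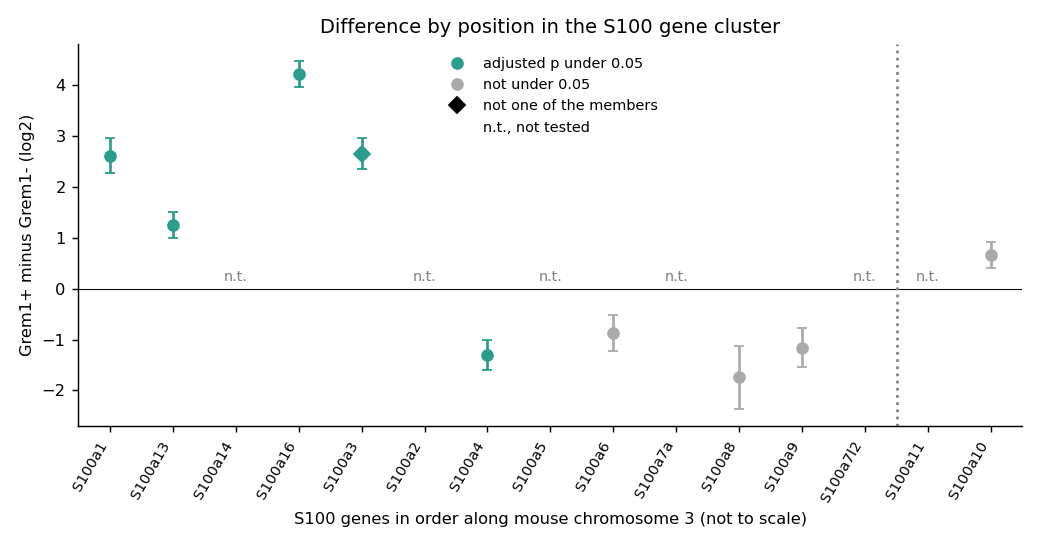
Grem1+ minus Grem1- difference with its limma standard error (log2, vertical axis) for the 15 S100 genes of mouse chromosome 3 in their RefSeq order (horizontal axis, not to scale), with a dotted line before the distant pair S100a11 and S100a10. Tested genes from S100a1 to S100a3 lie above 0 and those from S100a4 to S100a9 lie below it, and n.t. marks genes not tested.

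Partners of S100 proteins went both ways. Annexins bind membranes in the presence of calcium, and several are held by an S100 dimer. Of 8 annexin genes tested, 4 were higher and 1 lower, with a median difference of 1.20. Over all genes the shares were 11.7% higher and 8.51% lower. Anxa8 went from 5.31 ± 0.33 to 10.93 ± 0.30 (SD, n = 3), a difference of 5.62 (SE 0.25, limma adjusted p = 0.00906). Anxa4 differed by 4.60 (SE 0.64) and Anxa6, a partner of several S100 proteins, by 1.80 (SE 0.25), while Anxa3, an annexin of neutrophils, differed by -3.34 (SE 0.26), and their limma adjusted p-values were at most 0.0214. Anxa4 missed the threshold when dim probe sets were kept (adjusted p = 0.0520), and 1 of the 2 passing probe sets of Anxa6 was called. Anxa2, the partner of S100a10, read 10.11, 10.57 and 10.85 in Grem1- and 11.13, 11.31 and 11.17 in Grem1+. Its groups were separate, yet a difference of 0.69 (SE 0.29) missed the threshold (limma adjusted p = 0.174).

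Of 8 tested genes of receptors and co-receptors for secreted S100 proteins, 1 was higher and 4 were lower, with a median difference of -1.70, where 11.7% of all genes were higher and 8.51% lower. On the same arrays 9 of 12 pan-haematopoietic markers were lower, and their part in the values of receptors such as Cd33 and Cd14 was not tested. Bsg, the gene of basigin, which binds S100A9, differed by 2.88 (SE 0.31, limma adjusted p = 0.0146). Cd33, a receptor of myeloid cells, differed by -4.70 (SE 0.64), the adhesion molecule Alcam by -3.09 (SE 0.55) and Cd14, a co-receptor of TLR4, by -1.79 (SE 0.27), with limma adjusted p-values of at most 0.0316. Some Grem1+ arrays of these 3 genes were dim, and raising dim values to log2 4 gave differences of -4.23, -2.69 and -1.68. When dim probe sets were kept, Cd33 and Alcam missed the threshold (adjusted p = 0.0508 and 0.0737). Ager, which encodes RAGE, the receptor most often linked to S100 proteins, read 5.93, 5.55 and 5.83 in Grem1- and 3.995, 3.94 and 4.58 in Grem1+, a difference of -1.60 (SE 0.29, limma adjusted p = 0.0321). Its other passing probe set differed by -0.23, and the mean of both did not pass (adjusted p = 0.0589). Tlr4, the receptor of calprotectin, read 8.52, 9.97 and 9.45 against 8.54, 5.14 and 5.99, with mouse 1 level between fractions, and its difference of -2.75 (SE 1.04) missed the threshold (limma adjusted p = 0.148), or -4.14 without mouse 1. The mean of its probe sets passed (adjusted p = 0.0300).

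Of 7 intracellular targets tested, 0 were higher and 1 was lower, where 11.7% of all genes were higher and 8.51% lower. The lower one was Stk38, a kinase that S100B binds, at -2.50 (SE 0.30, limma adjusted p = 0.0166). The count depends on the probe set. Myh9, also on this list, did not pass at the probe set used for the gene, with a difference of -0.16. However, 2 of its 5 passing probe sets were called lower over probe sets, with all 5 between -2.62 and -0.16. Of 2 tested genes of protein release and plasminogen activation, Fgf1, which leaves cells together with S100A13, was higher and the other did not pass. Fgf1 was dim in Grem1- at 3.68, 3.79 and 3.59 and read 6.69, 5.24 and 6.51 in Grem1+, which is at least 4.43-fold (limma adjusted p = 0.0313). With its most variable probe set Fgf1 missed the threshold (adjusted p = 0.114). Without mouse 3, in the limma model without the block, Ager, Alcam, Fgf1 and Anxa6 missed the threshold, with adjusted p-values of 0.0566, 0.0962, 0.0923 and 0.0506. The other partner, receptor and SOX genes called higher or lower among genes and named here passed there, and the model with the block called 0 genes.

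**Figure D5:**
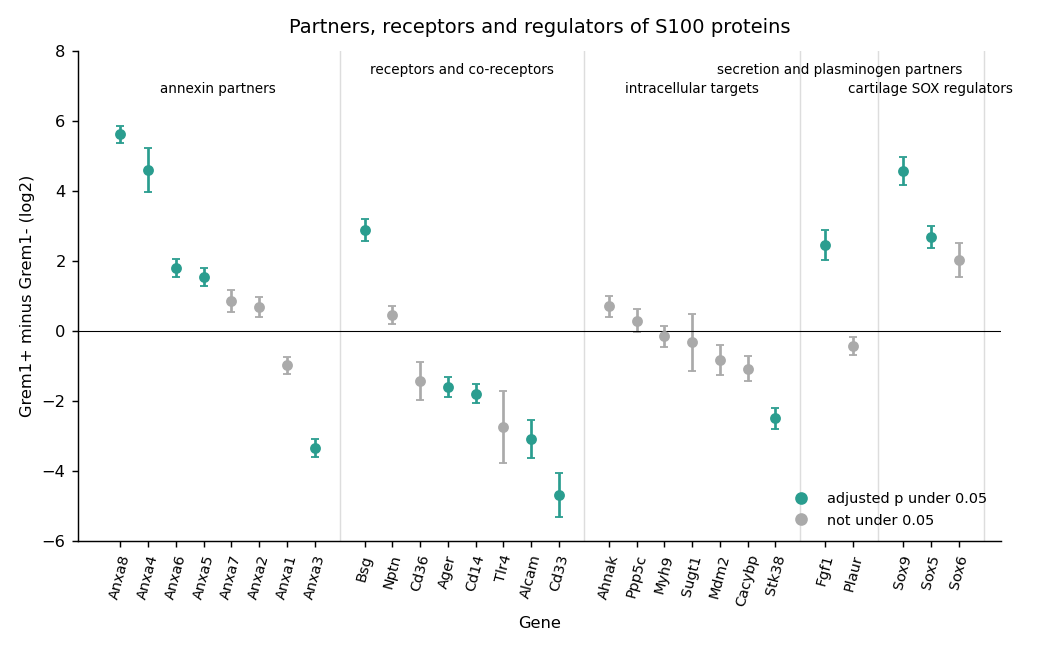
Grem1+ minus Grem1- difference with its limma standard error (log2, vertical axis) for the tested genes (horizontal axis) of 5 lists of S100 partners, receptors and regulators. Green marks an adjusted p under 0.05, and Anxa8 at 5.62 and Cd33 at -4.70 are the furthest from 0.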

How the data were processed

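Arrays of 2 sorted marrow fractions from 3 mice were analysed. The deposited values are log2 expression per probe set, made with GCRMA per the submitters' processing notes, and its version and options are not stated in the sources used here. Values between 0.80 and 14.05 were taken as log2. No depth applies to arrays, and their number limits the precision.

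Probe sets with exactly 1 symbol in the platform annotation (34945, controls left out) entered when above log2 4 on at least 3 of 6 arrays (18157). This limit is a choice, with no measured background behind it. Each of 10151 genes was represented by its brightest passing probe set. Grem1+ minus Grem1- was fitted across all genes, and again across all passing probe sets, with limma 3.58.1 (R 4.3.3, lmFit and eBayes, two-sided) with the mouse as a block, and adjusted by Benjamini-Hochberg at a threshold of 0.05. Residual and prior degrees of freedom were 2 and 2.10 in the fit across genes, and the prior was 2.28 in the fit across probe sets. The pairing of fractions by mouse comes from the design text, and deviations of same-numbered arrays from their group means correlated at 0.014, 0.074 and 0.046. At most 0.00222% of values were identical between any 2 arrays.

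The members, lists and tests were chosen with earlier results of these data known. Named were all members, up to 4 called genes of each partner list with the largest differences (2 where none passed), Ptprc and Xist, and for S100b, S100a4 and S100a8 the 3 genes with the closest profile. Grem1, Anxa2, Ager, Tlr4, Myh9 and single marker genes were chosen after their values were seen, and the sequence motifs were also chosen then. Promoter sequences are from RefSeq (GRCm38.p6).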

Additional observations from a re-analysis of the deposited data

How the results depend on the processing

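With the block kept and any mouse left out, 0 S100 genes or probe sets were called in either direction (0 of all genes in limma). Each time 4 S100 genes higher and 1 lower had an unadjusted p under 0.05. No share of all genes was taken at that unadjusted level, so these counts carry no comparison. Leaving out a mouse without the replicate block called 2 to 3 S100 genes higher and 0 lower, and 4 to 6 S100 probe sets higher. Among all genes, 764 to 769 were higher and 422 to 525 lower there. Among all probe sets, 1114 to 1176 were higher there. With all mice and no replicate block 3 S100 genes were higher and 1 lower, and 7 S100 probe sets were higher and 1 lower (S100a4, adjusted p = 0.0209). Among all genes 1465 were higher and 1078 lower there, and among all probe sets 2329 and 1876. The 1 lower gene became 0 without the filter, with cyclic loess, with the most variable probe sets, and without probe sets ending in _s_at, _x_at or _a_at. That last setting left 3 S100 genes and 4 S100 probe sets higher, beside 1048 of all 8628 genes and 1358 of all 12944 probe sets tested there. It tested 5 of the 9 genes and gave no value for the gap between the other members and the myeloid pair, since S100a8 has no other probe set. Under eBayes with trend and robust S100a4 missed the threshold (adjusted p = 0.0569) and S100a9 passed (0.0472 among genes and 0.0497 among probe sets), so that 1 gene and 1 probe set were lower, and S100a10 also passed while S100a13 did not (0.0890). This setting called 1027 of all genes and 1663 of all probe sets lower. Without the filter 500 of all genes were lower in place of 864, and 1095 probe sets were higher and 666 lower in place of 1826 and 1409. The stricter filter, a floor at log2 4, quantile normalization and median centring kept the 4 and 1 genes. They called 1103 to 1187 of all genes higher and 810 to 914 lower. The gap was 4.06 with the most variable probe sets and 2.09 to 3.15 with a mouse left out. No S100 gene or probe set that was tested changed sign under any alternative run. S100b, S100a1 and S100a16 kept their calls under all settings with 3 mice in which they were tested. Probe sets near log2 4 and near the top of the scale, S100a9 among them, limit what size of difference can be read.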

Other observations

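The genes outside the family whose profile over the 6 arrays lay closest to that of a member were sought among 10140 tested genes. The measure was the root mean square gap between profiles, each less its own mean. Closest to S100b were Susd5 (gap 0.29 log2), Panx3 (0.32), which encodes a pannexin channel, and Kcnma1 (0.43), which encodes a calcium-activated potassium channel. They differed between the fractions by 7.16, 7.15 and 7.06, but Panx3 differed by 1.97 and did not pass (adjusted p = 0.156) once probe sets ending in _s_at, _x_at or _a_at were removed. Closest to S100a8 were Stard7 (0.13), Chil3 (0.19), a chitinase-like protein of neutrophils and macrophages, and Psme3 (0.20), a proteasome activator subunit, none of which passed in limma at this probe set. Chil3 read 12.69, 12.49 and 12.70 in the Grem1- fractions and 8.77, 11.34 and 12.09 in the Grem1+ fractions of mice 1, 2 and 3, with mouse 1 lowest as for S100a8. Closest to S100a4 were Taldo1 (0.09), an enzyme of the pentose phosphate pathway, Ptpn18 (0.13) and Ppox (0.13), an enzyme of haem synthesis, and of these Taldo1 passed (limma adjusted p = 0.0470). All 6 arrays also carry the difference between the groups, so closeness describes these arrays only.

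Of 5 genes of the fused-type S100 family of skin that the annotation names, 0 passed the filter.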
